A study of Mus musculus with 10 samples.

Results

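The genes described here encode 8 proteins that set the resting potential of mural cells, the contractile and renin-producing cells of small vessels. They are the potassium channel subunits Kcnj8, Abcc9, Kcnma1, Kcnmb1, Kcnj2 and Kcnj12, the calcium-activated chloride channel Ano1 and the chloride loader Slc12a2. They were taken by gene symbol from a table of 32648 genes. All 8 were found, and all 8 were among the 18825 genes that passed a filter on low counts.

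The RNA came from renin cells of adult C57BL/6 mice aged 8 to 12 weeks that carried the Ren1c-YFP reporter, in which yellow fluorescent protein marks cells that transcribe renin. A constriction was placed on the aorta between the roots of the renal arteries in 3 coarctation mice, and 2 sham mice had surgery in which the aorta was neither exposed nor narrowed. After 72 hours living (DAPI-negative) YFP-positive cells of the cortex were sorted, 1000 of each kidney, and SMART-Seq v4 was used for the libraries. The 4 groups are right kidneys of coarctation mice (n = 3), left kidneys of coarctation mice (n = 3), right kidneys of sham mice (n = 2) and left kidneys of sham mice (n = 2). All groups carry the reporter, and the labels give no blood pressure for either kidney. Because cells were chosen by a reporter driven by renin, the gate itself follows renin transcription.

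A cell's resting potential follows the ion to which its membrane is most permeable. Open potassium channels make the potential more negative and keep voltage-gated calcium channels shut. Slc12a2 (NKCC1) loads chloride into the cell, so that chloride leaves through Ano1 when calcium opens it, which depolarizes smooth muscle. In renin cells, unlike in most secretory cells, a rise in calcium lowers renin release, and openers of the ATP-sensitive potassium channel raise it.

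The libraries held 20029817 to 32006229 estimated counts each. The defining markers of renin and mural cells were present in all 10 libraries, with Ren1 at 5451 to 48620 TPM (transcript abundance relative to all transcripts of the library), the EYFP reporter at 60.6 to 979 TPM, Acta2 at 843 to 2915 TPM, Rgs5 at 355 to 820 TPM and Pdgfrb at 4.64 to 17.6 TPM. Markers of other kidney cells were present too, with the sum of 10 proximal tubule markers at 918 to 10200 TPM. Sham mouse 1 was set off from the other mice on the leading principal component of log2 CPM, at 127.7 for the right and 107.3 for the left kidney, against -74.4 to 1.12 in the other 8 libraries. In such bulk libraries fewer cells of a type and less RNA per cell cannot be told apart.

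The 8 genes fell into 4 well-detected genes and 4 low ones by TPM, which corrects for transcript length. Kcnmb1 averaged 24.7 ± 4.06 TPM over all libraries (SD, n = 10), Ano1 19.2 ± 5.58, Slc12a2 14.2 ± 4.10 and Kcnj2 6.26 ± 1.76 TPM. Kcnj8 averaged 1.77 ± 1.03 TPM, Abcc9 1.11 ± 0.952, Kcnj12 0.998 ± 1.21 and Kcnma1 0.621 ± 0.328 TPM. Kcnmb1 lay above 91.2% of the genes in the table and Kcnma1 above 58.3%. Between neighbours in this order the ranges of the 10 libraries overlapped, except at both edges of Kcnj2. Its 3.75 to 9.03 TPM lay under the lowest Slc12a2 value of 9.13 TPM and above the highest Kcnj8 value of 3.27 TPM. Abcc9 and Kcnj12 reached at most 3.72 and 3.66 TPM, also under the lowest Kcnj2 value.

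**Figure D1:**
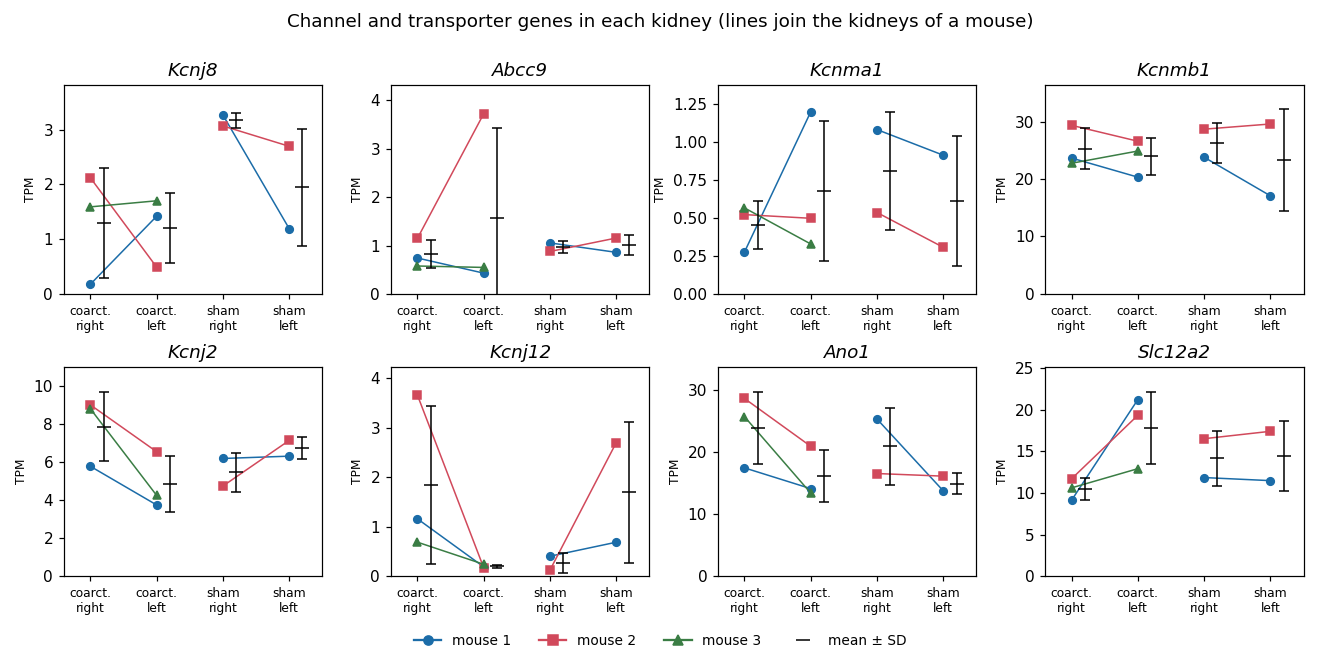
Deposited TPM of the 8 genes in each library, with a panel per gene and kidneys of coarctation mice to the left of those of sham mice. Lines join the kidneys of 1 mouse (mouse numbers start anew in each operation) and bars give the mean ± SD, not drawn below 0. Kcnj12 was higher in the right kidney of all 3 coarctation mice and lower in the right kidney of both sham mice.

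None of the 8 genes passed an adjusted p of 0.05 in any of the 5 comparisons made with the edgeR quasi-likelihood test, which called 0.00% of the 18825 tested genes in coarctation right minus left, 0.00% in sham right minus left, 0.00% in the difference between these side changes, 0.00% in coarctation minus sham left kidneys and 0.00% in coarctation minus sham right kidneys. limma-voom also called 0 of the 8 in each comparison. DESeq2 called 1 of the 8, Kcnj12 in the difference between the side changes, where it called 0.181% of the tested genes. In the other comparisons it called 0 of the 8, against 0.404% of tested genes for coarctation right minus left, 0.149% for sham right minus left, 0.207% for left kidneys and 0.292% for right kidneys. With mouse as a block in edgeR 0 of the 8 passed, against 0.0266% of tested genes for coarctation right minus left. At an unadjusted p under 0.05 edgeR had 2 of the 8 in coarctation right minus left (Kcnj12 and Slc12a2), against 4.63% of all tested genes. It had 1 of the 8, Kcnj12, in each of the other comparisons, against 1.94% for sham right minus left, 3.05% for the difference, 4.75% for left kidneys and 3.82% for right kidneys. These comparisons share libraries, so that the Kcnj12 values are not separate observations.

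**Figure D2:**
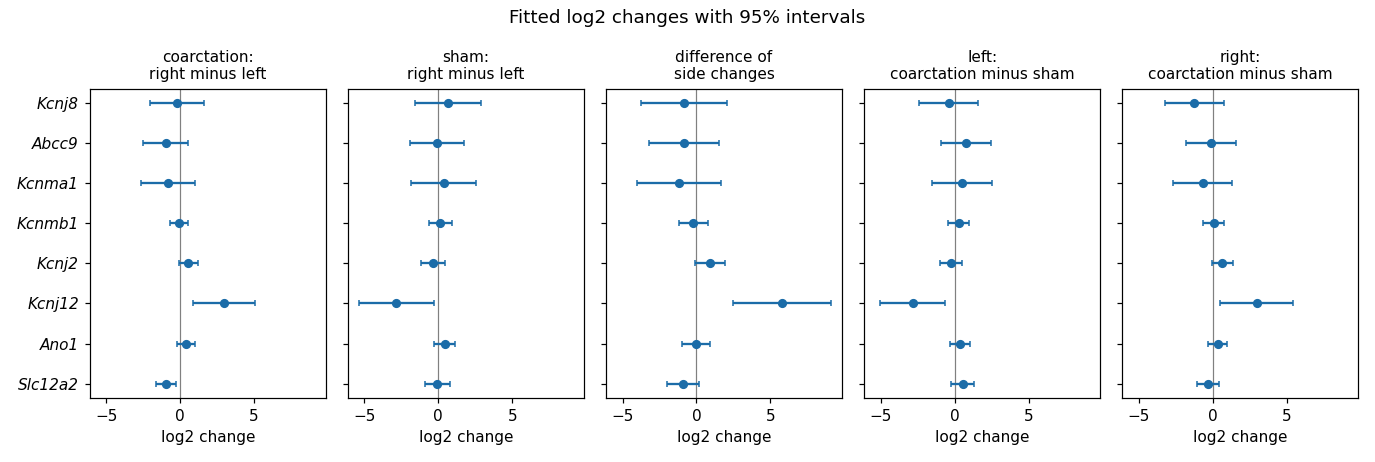
Fitted log2 changes of the 8 genes in the 5 comparisons with 95% intervals, as points and bars from the edgeR model of 10 libraries. The intervals of Kcnj12 left out 0 in all 5 panels and that of Slc12a2 in coarctation right minus left only, before any correction for the number of genes tested. Each interval was derived from the change and its test statistic, so leaving out 0 restates an unadjusted p under 0.05.

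Kcnj8 and Abcc9 form the ATP-sensitive potassium channel of vascular mural cells, with Kcnj8 as the pore and Abcc9 as the sulfonylurea receptor that surrounds it. The genes are neighbours in the same orientation (GRCm38, GENCODE vM21): Kcnj8 lies at chr6:142564837-142571614 on the minus strand with 3 exons and Abcc9 at chr6:142587862-142702315 with up to 41 exons. A gap of 16247 bases with 0 annotated genes parts them. Their upstream sequences are shown because the genes are adjacent partners whose levels differed in pattern. Each is the 250 bases before the RefSeq start (GRCm38.p6), read on the gene's strand, and capitals mark the core of a cAMP response element (TGACG or CGTCA) or a GC box (GGGCGG or CCGCCC).
Kcnj8, chr6:142571615-142571864, minus strand: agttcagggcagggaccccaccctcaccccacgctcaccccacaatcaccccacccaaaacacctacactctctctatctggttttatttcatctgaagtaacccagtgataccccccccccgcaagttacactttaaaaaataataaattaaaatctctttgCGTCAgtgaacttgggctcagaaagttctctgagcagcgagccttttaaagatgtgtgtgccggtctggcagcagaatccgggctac
Abcc9, chr6:142702275-142702524, minus strand: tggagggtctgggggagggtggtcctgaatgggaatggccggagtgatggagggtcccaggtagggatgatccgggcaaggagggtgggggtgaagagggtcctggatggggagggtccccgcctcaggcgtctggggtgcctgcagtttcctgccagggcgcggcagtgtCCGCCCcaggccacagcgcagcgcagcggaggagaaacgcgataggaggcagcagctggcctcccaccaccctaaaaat
The Kcnj8 window held 1 such core and 0 GC boxes, and the Abcc9 window 1 GC box and 0 cores. Among 32841 promoters of this length 17.8% held a core and 32.7% a GC box. Neither window held a TATA box (TATAAA, in 12.4% of promoters) or a CArG box, the serum response factor motif of contractile genes (in 1.47%), searched on both strands.

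Kcnj8 had 0.175, 2.12 and 1.59 TPM in the right kidneys of coarctation mice 1, 2 and 3, against 1.42, 0.490 and 1.70 TPM in their left kidneys. In sham mice 1 and 2 it had 3.27 and 3.07 TPM in right kidneys, against 1.19 and 2.70 TPM in left kidneys. The pore gene was thus lower in the right kidney of coarctation mice 1 and 3 and higher in that of mouse 2. Both sham right kidneys lay above both sham left kidneys. The log2 change of right minus left was -0.20 (SE 0.84, adjusted p = 1, edgeR) with coarctation and 0.64 (SE 1.03, adjusted p = 1) in sham mice. Every right kidney with coarctation lay under both sham right kidneys, with 2.12 TPM as the highest against 3.07 TPM as the lowest, and the log2 change was -1.25 (SE 0.93, adjusted p = 0.995, edgeR). For left kidneys it was -0.41 (SE 0.94, adjusted p = 0.956).

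Abcc9 had 0.741, 1.15 and 0.577 TPM in the right kidneys of coarctation mice, against 0.429, 3.72 and 0.547 TPM in their left kidneys. Its levels were 1.05 and 0.877 TPM in sham right kidneys and 0.859 and 1.16 TPM in sham left kidneys. A single library, the left kidney of coarctation mouse 2, held 3.72 TPM, and the other 9 lay between 0.429 and 1.16 TPM. In that library the authors' average transcript length of Abcc9 was 2717 bases, against 6442 to 7331 bases in the other 9. GENCODE lists 6 Abcc9 transcripts of 1458 to 7499 bases, so the estimate for that kidney drew on shorter ones. The log2 change of right minus left with coarctation was -0.99 (SE 0.70, adjusted p = 1, edgeR), and 0.63 without that library. The sham value was -0.11 (SE 0.85, adjusted p = 1). Coarctation minus sham gave -0.11 (SE 0.77) in right and 0.77 (SE 0.79) in left kidneys.

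The partners did not follow one another across libraries. The ratio of Abcc9 to Kcnj8 TPM ran from 0.286 to 7.59, with the extremes in the right kidney of sham mouse 2 and the left kidney of coarctation mouse 2. The Pearson correlation of their log2 CPM over the 10 libraries was -0.35, a description of libraries that share mice and depth.

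Kcnma1 and Kcnmb1 encode the pore and the smooth muscle accessory subunit of the large-conductance calcium-activated potassium channel, and the accessory subunit raises the calcium sensitivity of the pore. Kcnma1 (chr14:23289431-24014491, minus strand) has 38 annotated transcripts. Kcnmb1 (chr11:33963013-33973641, plus strand) has 1, and it overlaps Kcnip1 on the other strand, which had 0.0440 to 0.471 TPM. The strand of counting is not given in the sources used here. Kcnmb1 had the highest mean TPM of the 8 genes, whereas its pore Kcnma1 had the lowest.

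Kcnmb1 had 23.7, 29.4 and 22.8 TPM in the right kidneys of coarctation mice, against 20.3, 26.6 and 24.9 TPM in their left kidneys. Sham mice had 23.8 and 28.7 TPM in right kidneys, against 17.1 and 29.6 TPM in left kidneys. With a coefficient of variation of 16.4% over the 10 libraries it varied least of the 8 genes, and coarctation and sham groups overlapped on both sides. The log2 change of right minus left with coarctation was -0.08 (SE 0.29, 95% interval -0.72 to 0.56, adjusted p = 1, edgeR), and in sham mice it was 0.13 (SE 0.36). The right kidneys of coarctation and sham mice differed by 0.06 (SE 0.33) and the left kidneys by 0.27 (SE 0.33). The signs of the coarctation side change and of the change in right kidneys turned with library size alone and on log2(TPM + 1).

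Kcnma1 had 0.275, 0.521 and 0.565 TPM in the right kidneys of coarctation mice, against 1.20, 0.497 and 0.328 TPM in their left kidneys. It had 1.08 and 0.534 TPM in sham right kidneys and 0.911 and 0.306 TPM in sham left kidneys. These levels went with 24 to 94 estimated counts per library, and all groups overlapped. Such counts were scaled from TPM by length and library size, so they do not give the number of reads behind a level. The log2 change of right minus left was -0.81 (SE 0.84, adjusted p = 1, edgeR) with coarctation and 0.37 (SE 1.02) in sham mice, and coarctation minus sham gave -0.68 (SE 0.92) in right and 0.49 (SE 0.94) in left kidneys. The average transcript length of Kcnma1 varied 7.07-fold, with 1946, 4044 and 572 bases in coarctation right kidneys, 3385, 3176 and 3647 bases in coarctation left kidneys, 1852 and 1143 bases in sham right kidneys and 1846 and 1948 bases in sham left kidneys. Of the 31-base runs in its transcripts 6.1% were shared with other genes. The accessory subunit exceeded the pore 17.0-fold to 96.8-fold in TPM in the 10 libraries, and which transcripts of the pore gene stood behind the low level was not tested.

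**Figure D3:**
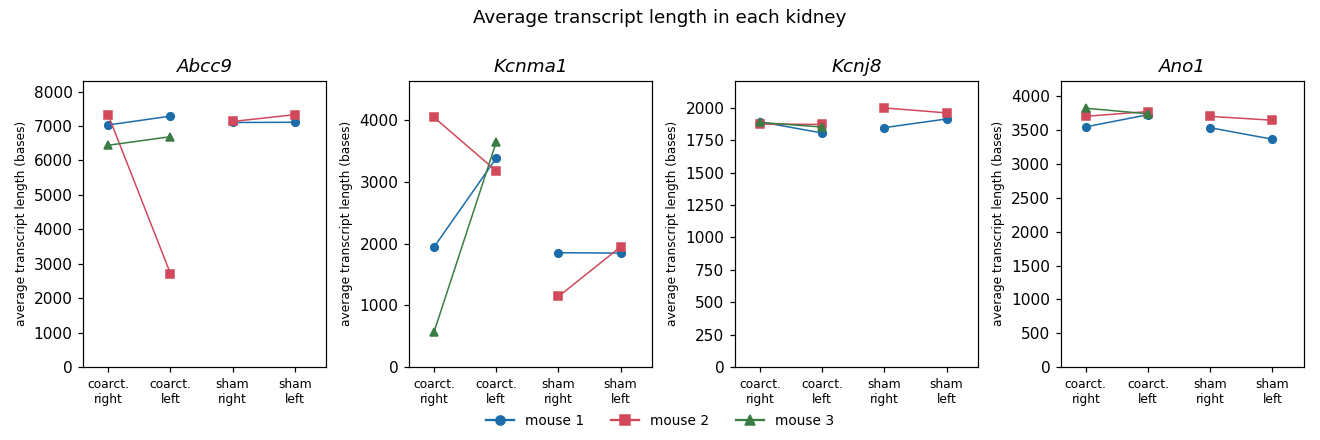
Average transcript length in bases of Abcc9, Kcnma1, Kcnj8 and Ano1 in each kidney, as deposited, with lines joining the kidneys of a mouse. Abcc9 stood at 2717 bases in the left kidney of coarctation mouse 2 and Kcnma1 ran from 572 to 4044 bases, while Kcnj8 varied 1.11-fold and Ano1 1.14-fold.

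Kcnj2 and Kcnj12 encode inward rectifiers, which hold the membrane near the potassium equilibrium potential and open further when external potassium rises modestly. Kcnj2 (chr11:111066164-111076821, plus strand) is the main inward rectifier of vascular smooth muscle, and Kcnj12 (chr11:61022564-61071131, plus strand) can join it in mixed channels. Their upstream sequences are shown because they are the only members whose side difference ran one way in all coarctation mice and the other way in both sham mice. The windows are defined as above, and capitals again mark the GC box and the response element core.
Kcnj2, chr11:111065914-111066163, plus strand: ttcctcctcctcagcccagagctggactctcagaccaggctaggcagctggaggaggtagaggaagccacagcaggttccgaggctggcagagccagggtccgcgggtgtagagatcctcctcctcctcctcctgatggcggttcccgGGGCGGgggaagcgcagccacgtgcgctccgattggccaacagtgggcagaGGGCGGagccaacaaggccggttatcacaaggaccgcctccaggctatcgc
Kcnj12, chr11:61065554-61065803, plus strand: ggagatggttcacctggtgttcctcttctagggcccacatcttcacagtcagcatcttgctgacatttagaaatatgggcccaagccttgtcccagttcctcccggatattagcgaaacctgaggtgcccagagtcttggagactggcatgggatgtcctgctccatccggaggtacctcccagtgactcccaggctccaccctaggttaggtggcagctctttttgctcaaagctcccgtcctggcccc
Kcnj2 held 2 GC boxes, while Kcnj12 held 0 of the 4 motifs searched. The RefSeq start of Kcnj12 lies inside the gene as GENCODE draws it, and this window falls in an intron there.

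Kcnj12 had 1.16, 3.66 and 0.684 TPM in the right kidneys of coarctation mice, against 0.185, 0.169 and 0.238 TPM in their left kidneys. In sham mice it had 0.400 and 0.119 TPM in right kidneys, against 0.683 and 2.69 TPM in left kidneys. The groups did not overlap on either side of the design, and the direction turned between operations. With coarctation the right kidneys were higher in 3 of 3 mice, and in sham mice they were lower in 2 of 2. The estimated counts were 67, 234 and 36 in coarctation right kidneys and 10, 10 and 13 in coarctation left kidneys. In sham mice they were 17 and 7 in right kidneys and 32 and 157 in left kidneys. In coarctation left and sham right kidneys the level thus went with 7 to 17 estimated counts.

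The log2 change of Kcnj12 was 2.95 for coarctation right minus left (7.75-fold, SE 0.96, unadjusted p = 0.00915, adjusted p = 0.992, edgeR). For sham right minus left it was -2.86 (SE 1.17, unadjusted p = 0.0304, adjusted p = 1). The difference between these changes was 5.81 (SE 1.53, 95% interval 2.49 to 9.13, unadjusted p = 0.00232, adjusted p = 1, edgeR), which placed Kcnj12 at rank 23 of the 18825 genes by p. DESeq2 gave an adjusted p of 0.0108 for it, and the alternatives together gave adjusted values from 0.0108 to 1. The side difference was larger in sham mouse 2 than in sham mouse 1. Without its kidneys the difference was 3.84 (unadjusted p = 0.0564, adjusted p = 1), and without those of sham mouse 1, which stood apart, it was 7.44 (unadjusted p = 0.00332, adjusted p = 1). Kcnj12 was also lower in left kidneys of coarctation than sham mice (log2 change -2.84, SE 1.01, adjusted p = 0.912) and higher in right kidneys (2.97, SE 1.13, adjusted p = 0.995, edgeR).

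Markers of the loop, distal tubule and collecting duct ordered the kidneys of each mouse in the same way. The summed TPM of the 15 markers was 1037, 196 and 234 in coarctation right kidneys, against 291, 102 and 96.5 in coarctation left kidneys. It was 322 and 120 in sham right kidneys, against 467 and 250 in sham left kidneys. Of the 15 markers 11 had a positive log2 change for coarctation right minus left and 11 a negative one for sham right minus left, 0 of them was called, and 0 was at 0 in all libraries. Leukocyte markers (10 genes) summed to 947, 422 and 313 TPM in coarctation right kidneys and 95.9, 416 and 68.5 TPM in coarctation left kidneys, higher on the right in 3 of 3 mice, with a positive log2 change in 8 of 10 and S100a9 at 0 in all coarctation right kidneys. In sham mice they summed to 124 and 352 TPM in right kidneys and 444 and 135 TPM in left kidneys. Across mice the order differed: the left kidney of coarctation mouse 1 had 0.185 TPM of Kcnj12 beside a distal sum of 291 TPM, above that of the right kidney of mouse 2, which had the highest Kcnj12 level. The part of either cell type in the Kcnj12 levels was not tested.

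**Figure D4:**
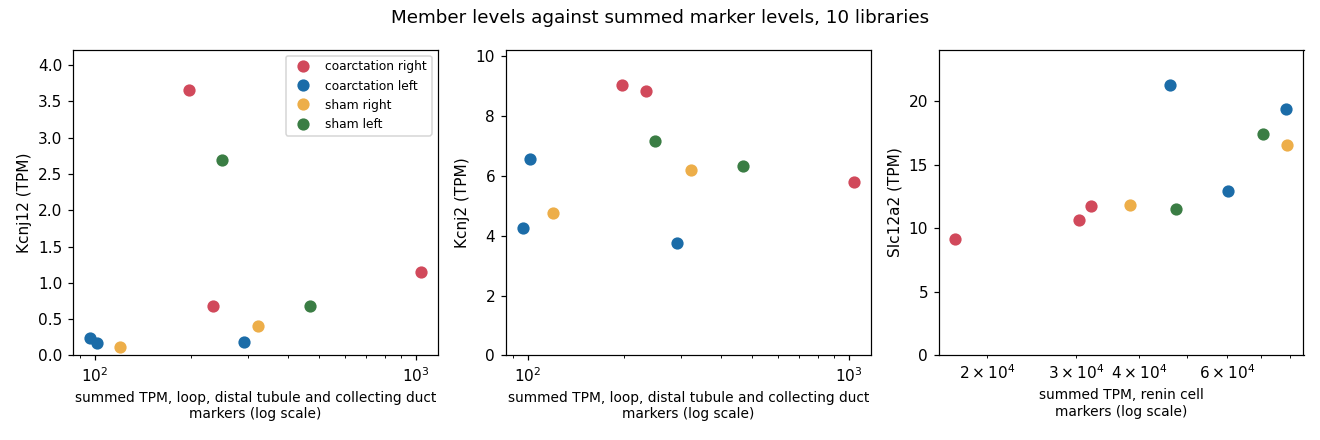
TPM of Kcnj12, Kcnj2 and Slc12a2 (vertical) against a summed marker level (horizontal, log scale) in the 10 libraries, coloured by group. The highest distal sum, 1037 TPM, went with 1.16 TPM of Kcnj12, and the highest Kcnj12 level, 3.66 TPM, with a distal sum of 196 TPM. The lowest Slc12a2 level stood at the lowest renin cell sum of 17290 TPM. The highest Slc12a2 level, 21.3 TPM, stood at 46060 TPM, while the highest renin cell sum, 78810 TPM, went with 16.5 TPM of Slc12a2.

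Kcnj2 showed a smaller difference in the same directions. It had 5.79, 9.03 and 8.82 TPM in the right kidneys of coarctation mice, against 3.75, 6.56 and 4.25 TPM in their left kidneys. Sham mice had 6.20 and 4.74 TPM in right kidneys, against 6.32 and 7.15 TPM in left kidneys. The right kidney was higher in 3 of 3 coarctation mice, although the groups overlapped. It was lower in 2 of 2 sham mice, whose groups did not overlap but lay as close as 6.20 and 6.32 TPM, both in mouse 1. The log2 change was 0.55 (SE 0.30, unadjusted p = 0.091, adjusted p = 1, edgeR) with coarctation, -0.35 (SE 0.36, adjusted p = 1) in sham mice and 0.90 for the difference (SE 0.47, 95% interval -0.12 to 1.92, unadjusted p = 0.079, adjusted p = 1). Right kidneys of coarctation minus sham mice gave 0.65 (SE 0.34, adjusted p = 0.995) and left kidneys -0.25 (SE 0.33).

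Only Kcnj2 and Kcnj12 of the 8 genes differed in opposite directions in every coarctation and every sham mouse, which 6.26% of the tested genes did. The log2 CPM of the pair correlated at a Pearson r of 0.72 over the 10 libraries, the highest among the pairs of the 8 genes. Kcnj2 exceeded Kcnj12 in every library, by 2.47-fold to 39.9-fold in TPM. The ratio averaged 6.79 ± 5.44 in coarctation right kidneys and 25.7 ± 11.5 in coarctation left kidneys (SD, n = 3 each), and 27.7 ± 17.3 in sham right kidneys and 5.95 ± 4.66 in sham left kidneys (SD, n = 2 each). The transcripts of Kcnj12 share 0.0736% of their 31-base runs with another gene, Kcnj4, and none with Kcnj2.

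Ano1 (chr7:144588549-144751974, minus strand) encodes a chloride channel opened by calcium, and Slc12a2 (chr18:57878678-57946821, plus strand) a cotransporter that brings in sodium, potassium and chloride. Slc12a2 had 9.13, 11.7 and 10.6 TPM in the right kidneys of coarctation mice, against 21.3, 19.4 and 12.9 TPM in their left kidneys. In sham mice it had 11.9 and 16.5 TPM in right kidneys, against 11.5 and 17.4 TPM in left kidneys. With coarctation the right kidneys were lower in 3 of 3 mice with no overlap, while the sham kidneys of each mouse lay close together. The log2 change with coarctation was -0.94 (1.92-fold lower on the right, SE 0.32, 95% interval -1.63 to -0.25, unadjusted p = 0.0114, adjusted p = 0.992, edgeR). The sham change was -0.06 (SE 0.39, 95% interval -0.90 to 0.78). The difference between the changes was -0.88 (SE 0.50, unadjusted p = 0.102, adjusted p = 1), so a difference between the operations was not shown. Coarctation minus sham gave -0.33 (SE 0.35) in right kidneys, whose groups did not overlap but lay as close as 11.7 and 11.9 TPM, and 0.55 (SE 0.36) in left kidneys.

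With mouse as a block in the edgeR model, the coarctation change of Slc12a2 was -0.90 (SE 0.21, unadjusted p = 0.00209, adjusted p = 0.453). Leaving out the left kidney of coarctation mouse 1 gave -0.61, an unadjusted p of 0.113 and an adjusted p of 1, and the alternatives together gave adjusted values from 0.453 to 1. Renin cell markers were lower in the same kidneys: the sum of 8 markers was 17290, 32200 and 30470 TPM in coarctation right kidneys, against 46060, 78620 and 60060 TPM in coarctation left kidneys, and 7 of the 8 had a negative log2 change, 4 of them at an unadjusted p under 0.05 and 0 called. With mouse as a block Ren1 itself was called (log2 change -2.23, adjusted p = 0.00275, against 0.165 without the block, edgeR). Podocyte markers (8 genes) summed to 44.7 to 56.3 TPM in coarctation right kidneys and 58.8 to 83.2 TPM in coarctation left kidneys, and 7 of the 8 had a negative log2 change. Among coarctation left kidneys the order differed: that of mouse 1 had the lowest renin cell sum, 46060 TPM, beside the highest Slc12a2 level. The part of renin cell and podocyte markers in the Slc12a2 values was not tested.

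Ano1 had 17.4, 28.6 and 25.7 TPM in the right kidneys of coarctation mice, against 14.1, 20.9 and 13.4 TPM in their left kidneys. Sham mice had 25.3 and 16.5 TPM in right kidneys, against 13.7 and 16.1 TPM in left kidneys. The right kidney was higher in all 5 mice, whichever the operation, and the coarctation groups overlapped while the sham groups did not. In sham mouse 2 the kidneys lay close, at 16.5 and 16.1 TPM. The sham log2 change was 0.04 without sham mouse 1, which stood apart, and 0.79 without sham mouse 2. The log2 change was 0.41 with coarctation (SE 0.27, 95% interval -0.19 to 1.00, adjusted p = 1, edgeR) and 0.42 in sham mice (SE 0.34). The difference between these was -0.02 (SE 0.43, 95% interval -0.95 to 0.92), and its sign turned with library size alone and on log2(TPM + 1). The summed TPM of 10 smooth muscle markers was also higher on the right in all 5 mice. It was 8535, 17740 and 15540 in coarctation right kidneys, against 7550, 11640 and 14540 in coarctation left kidneys. In sham mice it was 6528 and 15180 in right kidneys, against 5934 and 14040 in left kidneys. Of the 10 markers 7 had a negative log2 change for coarctation right minus left and 2 for sham right minus left. Their part in the Ano1 values was not tested.

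The ratio of Ano1 to Slc12a2 TPM, channel over loader, separated the kidneys of coarctation mice. It was 1.91, 2.44 and 2.42 in right kidneys, against 0.662, 1.08 and 1.03 in left kidneys, with means of 2.25 ± 0.301 and 0.924 ± 0.228 (SD, n = 3 each). In sham mice it was 2.13 and 0.998 in right kidneys, against 1.19 and 0.923 in left kidneys. The sham kidneys overlapped, and sham mouse 1 had a right kidney within the range of coarctation right kidneys. With 3 kidneys a group an exact permutation test could not give a two-sided p below 0.1, and none was run. In each coarctation mouse Ano1 was higher and Slc12a2 lower on the right. The direction of the ratio within a mouse thus follows from these values and is no separate result.

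Counted together for coarctation right minus left, 3 of the 8 genes (Kcnj2, Kcnj12, Ano1) were higher on the right in every mouse, against 20.8% of tested genes, and 1 (Slc12a2) was lower in every mouse, against 8.15%. Without overlap 1 (Kcnj12) was higher, against 8.19%, and 1 (Slc12a2) was lower, against 2.97%. In sham mice 2 (Kcnj8, Ano1) were higher without overlap, against 10.9%, and 2 (Kcnj2, Kcnj12) lower, against 9.77%. In left kidneys of coarctation minus sham mice 1 (Kcnj12) was lower without overlap, against 17.2%, and 0 higher, against 4.87%. In right kidneys 1 (Kcnj12) was higher, against 5.41%, and 2 (Kcnj8, Slc12a2) lower, against 11.0%. The median log2 change of the 8 was -0.14 for coarctation right minus left, against 0.02 over all tested genes, and 0.03 for sham right minus left, against 0.02. With so few genes these shares describe the members and are no test.

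The wider machinery of the membrane potential was read from 5 lists with 134 genes, of which 127 were tested. edgeR called 0 of the 127 in each of the 5 comparisons, and at an unadjusted p under 0.05 coarctation right minus left had 6 higher and 1 lower, against 4.63% of all tested genes in either direction, a share close to that background. By list, this was 2 higher and 1 lower of 48 wider potassium channel genes (median log2 change 0.37), 2 and 0 of 33 wider chloride channel genes (0.05), 0 and 0 of 20 chloride and potassium transporters and their kinases (-0.30), 2 and 0 of 11 sodium pump genes (0.04), and 0 and 0 of 15 voltage-gated calcium channel genes (0.37). For sham right minus left 0 of the 127 reached that p in either direction, against 1.94% of all tested genes, and for the difference between the side changes 1 was higher and 1 lower, against 3.05%. For left kidneys of coarctation minus sham mice 0 were higher and 3 lower, against 4.75%, and for right kidneys 1 was higher and 5 lower, against 3.82%.

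**Figure D5:**
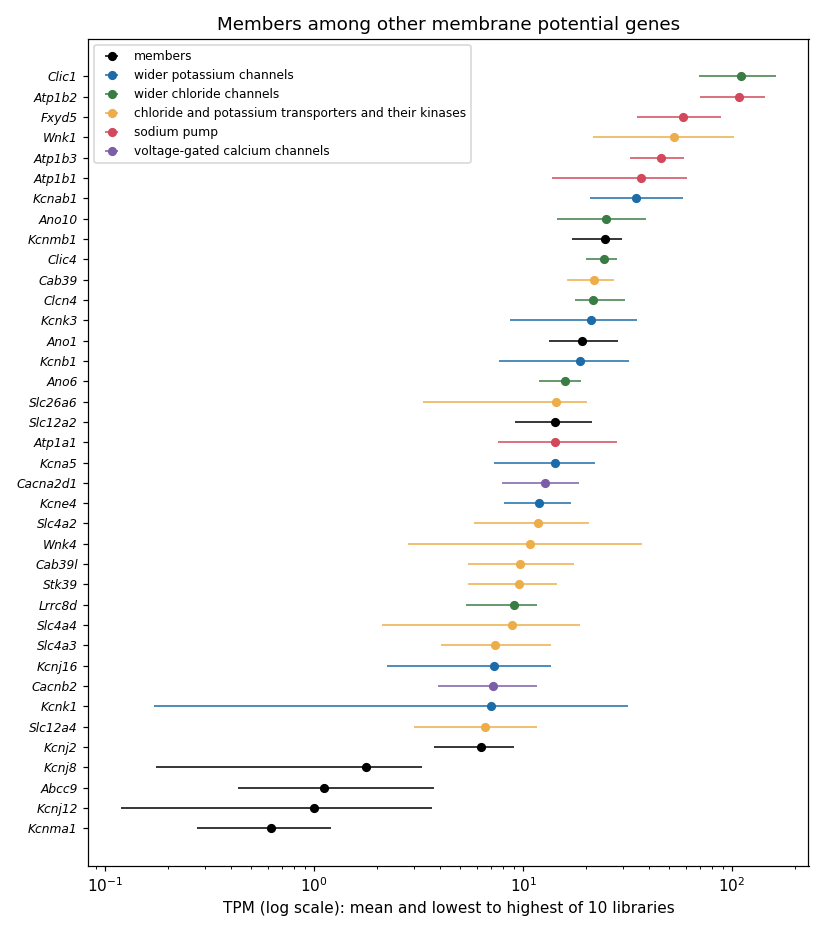
Mean TPM of 10 libraries on a log scale, with lines from the lowest to the highest library, for the 8 members (black) and the genes of the 5 wider lists (coloured) with a mean of at least 6 TPM. Fxyd2 and Fxyd1, at 6858 and 4504 TPM, lie off the scale and are left out, and 1 further gene is not shown. Kcnmb1, Ano1 and Slc12a2 rank 11, 16 and 20 among the 142 genes of the lists and the members.

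The highest of these genes by mean TPM were the sodium pump regulators Fxyd2, at 6858 TPM (2524 to 12110), and Fxyd1 (phospholemman), at 4504 TPM (3796 to 5475). Fxyd1 regulates the pump in heart and smooth muscle, and Fxyd2 in kidney tubules.

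Genes of these lists with the smallest p were mostly low. Fxyd6, another pump regulator, had 9, 5 and 128 estimated counts in coarctation right kidneys, against 2, 1 and 2 in coarctation left kidneys. In sham mice it had 22 and 208 in right kidneys, against 19 and 2 in left kidneys, so the right kidney was higher in all 5 mice. Clca2, a chloride channel regulator, had 4, 2 and 22 estimated counts in coarctation right kidneys, against 0, 0 and 0 in coarctation left kidneys. In sham mice it had 37 and 2 in right kidneys, against 6 and 5 in left kidneys. Most of these estimated counts are low, and no fold is given for them. Cacna1d, an L-type calcium channel pore, had 0.124, 0.113 and 0.0562 TPM in coarctation left kidneys, against 0.365 and 0.685 TPM in sham left kidneys (log2 change -2.20, SE 0.91, unadjusted p = 0.0308, adjusted p = 0.912, edgeR). The potassium channel Kcna4 had 1, 8 and 2 estimated counts in coarctation left kidneys, against 7 and 72 in sham left kidneys. In right kidneys Ano7, an anoctamin, had 6, 11 and 7 estimated counts with coarctation, against 49 and 47 in sham mice, and Kcnd3, an A-type potassium channel pore, had 6, 15 and 9 against 34 and 81.

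Likeness to each of the 8 genes was measured by the Pearson correlation of log2 CPM over the 10 libraries, among genes whose log2 CPM averaged 3 or more. Genes with a pattern like that of Kcnj2 included Zfp36l1 (r = 0.86, Spearman rho 0.84) and Rabgap1l (r = 0.85, rho 0.75). The gene most like Kcnj8 was Il15 (r = 0.94), for Abcc9 Ap1b1 (0.92), for Kcnma1 Ptms (0.88), for Kcnmb1 Sfr1 (0.98), for Kcnj12 Pnpla8 (0.85, with Dnajb14 at 0.85 and Zfp81 at 0.83 next), for Ano1 Rasa2 (0.85) and for Slc12a2 Whsc1l1 (0.92). Each is at or near the highest of all candidate genes over 10 libraries that share mice and depth, and is given as a description.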

How the data were processed

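Per the labels' protocols, libraries were made with SMART-Seq v4 from 1000 sorted cells per kidney. The authors deposited TPM, estimated counts and the average transcript length in bases for 32648 genes, per the file headers, and a column of that file says the counts were scaled from TPM by length and library size. Per the submitters' processing notes, FastQC and GRCm38 (mm10) were used; which quantifier and annotation were used is not given in the sources used here.

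Estimated counts were rounded and fitted in R 4.3.3 with edgeR 4.0.16 (filterByExpr, TMM, quasi-likelihood test, 1 model of 4 groups over 10 libraries, common dispersion 0.45, 6 residual degrees of freedom), which left 18825 genes. p-values were adjusted over these by the Benjamini-Hochberg method at 0.05. The model treats kidneys as independent. The deposited columns were matched to the labels, with no other sample columns. The kidneys of 1 mouse are paired by the mouse number in the labels, so a fit with mouse as a block (3 residual degrees of freedom) was an alternative. Deviations of paired kidneys from the group means correlated at 0.127, 0.0496 and 0.0307 in coarctation mice. In both sham mice the value was 0.398. With 2 kidneys a sham group the deviations of the 2 mice mirror each other, so this is a single value and is not comparable with the others. Other alternatives were DESeq2 1.42.0, limma 3.58.1 (voom, and log2(TPM + 1)), other scaling, no filter on low counts and leaving out libraries. Reads carry no molecular identifiers.

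The members and lists were chosen with earlier results of these data known. The text names the members and, in each comparison, the 3 genes of the wider lists with the smallest p, plus the genes most correlated with a member (predicted genes left out); Fxyd1, Fxyd2 and the marker sums printed were chosen after their values were seen. A result selected by this rule is left out of the text, although counts include it. Positions come from GENCODE vM21 by symbol, and upstream sequences from RefSeq (GRCm38.p6), in which the 4 genes shown were matched. The fits were tested on simulated data of independent libraries with a lower dispersion than these data. Changes were put only into better-detected genes, so low genes and paired kidneys were not covered.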

Additional observations from a re-analysis of the deposited data

Results flagged for a closer look

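In 3 genes described here the right kidney differed from the left in one direction in every coarctation mouse and in the other direction in every sham mouse, as 6.26% of the tested genes did. The difference between the side changes was 5.81 on the log2 scale for Kcnj12 (unadjusted p = 0.00232), 2.61 for Cacna1d (unadjusted p = 0.0678) and 0.90 for Kcnj2 (unadjusted p = 0.079). The adjusted p was 1 for each of the 3 in edgeR. For Kcnj2 the kidneys of sham mouse 1 lay close, at 6.20 TPM in the right and 6.32 TPM in the left. Cacna1d, an L-type calcium channel pore, had 0.269, 0.177 and 0.0975 TPM in coarctation right kidneys, against 0.124, 0.113 and 0.0562 TPM in coarctation left kidneys. It had 0.262 and 0.0637 TPM in sham right kidneys, against 0.365 and 0.685 TPM in sham left kidneys. The loop, distal tubule and collecting duct marker sum ordered the kidneys in the same way in all 5 mice, and its part in these values was not tested.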

How the results depend on the processing

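The number of genes called by edgeR, 0 in each comparison, depended on the tool and on the filter. For coarctation right minus left it was 5 with mouse as a replicate block, 76 with DESeq2, 112 with no filter on low counts and 0 to 4 when libraries were left out, with 4 without both kidneys of coarctation mouse 3 and 3 without its right kidney. For sham right minus left it was 28 with DESeq2, 2 on log2(TPM + 1) and 19 with no filter. For the difference it was 34 with DESeq2, 63 with no filter and 0 to 1 on leaving out libraries. For left kidneys it was 39 with DESeq2, 3 on log2(TPM + 1) and 67 with no filter, and for right kidneys 55, 70 with no filter and 0 to 3 on leaving out libraries. Among the named genes the block changed 1 call, that of Ren1 in coarctation right minus left (adjusted p = 0.00275, against 0.165 without the block), and it could not be fitted for coarctation minus sham, whose mice differ.

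A call was gained by Kcnj12 in the difference with DESeq2 (5.85, adjusted p = 0.0108) and by Kcne1 in the difference with no filter (5.91, adjusted p = 0.0229), among 363 values that kept all libraries. Signs turned in 7 of these. Library size alone gave 0.073 for Kcnj8 and 0.072 for Kcnmb1 in coarctation right minus left, 0.055 for Ano1 in the difference and -0.049 for Kcnmb1 in right kidneys. On log2(TPM + 1) Kcnmb1 had 0.075 in coarctation right minus left and -0.056 in right kidneys, and Ano1 0.10 in the difference. Library size alone moved the median of all genes for coarctation right minus left to 0.17, against 0.02 with TMM.

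Leaving out libraries turned the sign in 50 of 821 values. For coarctation right minus left the ranges were -0.95 to 0.49 for Kcnj8, -1.44 to 0.63 for Abcc9, -1.33 to 0.23 for Kcnma1 and -0.19 to 0.078 for Kcnmb1. For sham right minus left they were -0.39 to 0.20 for Abcc9, -0.18 to 1.23 for Kcnma1, -0.28 to 0.67 for Kcnmb1 and -0.48 to 0.37 for Slc12a2. For the difference they were -1.33 to 0.74 for Abcc9, -0.75 to 0.20 for Kcnmb1 and -0.38 to 0.36 for Ano1. For left kidneys they were -0.92 to 0.41 for Kcnj8, -0.81 to 1.19 for Abcc9, -0.40 to 1.38 for Kcnma1 and -0.12 to 0.83 for Kcnmb1, and for right kidneys -0.30 to 0.095 for Abcc9, -0.16 to 0.37 for Kcnmb1 and -0.64 to 0.11 for Slc12a2. The cause was not tested. Turned signs were not confined to the low genes. Ano1 had 8 in the difference and Kcnmb1 5 in coarctation right minus left, where Kcnj8 had 4. Kcnj12, whose estimated counts went down to 7, kept its sign in every comparison. The estimated counts of the genes differed, with 7 to 924 per library for the 4 low genes and 680 to 4913 for the other 4. Standard errors of the side changes were 0.70 to 1.17 for Kcnj8, Abcc9, Kcnma1 and Kcnj12, against 0.27 to 0.39 for Kcnmb1, Kcnj2, Ano1 and Slc12a2.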

Other observations

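Kcne1, an accessory subunit of potassium channels of epithelia and heart, had 13.6, 0.0434 and 3.85 TPM in coarctation right kidneys, against 1.06, 0.902 and 0 TPM in coarctation left kidneys. It had 3.15 and 0 TPM in sham right kidneys, against 12.4 and 6.70 TPM in sham left kidneys, and the difference between the side changes was 5.88 (SE 2.81, unadjusted p = 0.0572, adjusted p = 1, edgeR). Kcnc1, a voltage-gated potassium channel pore, had 0.236, 1.84 and 0.591 TPM in coarctation right kidneys, against 3.63, 2.49 and 1.67 TPM in coarctation left kidneys, lower on the right in 3 of 3 mice. It had 1.65 and 4.48 TPM in sham right kidneys, against 1.68 and 0.835 TPM in sham left kidneys. Its difference between the side changes was -3.14 (SE 1.14, unadjusted p = 0.0164, adjusted p = 1, edgeR). The anion exchanger Slc26a11 had 1.74 and 1.77 TPM in sham right kidneys, against 0.420 and 0.345 TPM in sham left kidneys, and Clcn3, a chloride-proton exchanger of endosomes, had 1.91 and 3.83 TPM against 6.95 and 5.22 TPM. Neither passed the test (adjusted p = 1 for each, edgeR).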
